A study of Danio rerio with 8 samples.

Results

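The annexin family was followed across zebrafish embryos in which the arginine methyltransferase gene prmt6 had been targeted. Annexins are soluble proteins that bind acidic phospholipids of cell membranes when calcium rises. They link membranes to the actin cytoskeleton and to each other, and in mammals they take part in vesicle traffic, membrane repair and the control of inflammation. A conserved core of annexin repeats holds the calcium sites, and a variable first segment gives each member its partners, many of them small S100 calcium-binding proteins.

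The members were chosen by gene symbol, and the family was selected on severe-against-control differences already known from these arrays, so those differences are given here as a description with no p-value of their own. Counts of member probe sets that passed the fit across all probe sets are first given beside the share of all probe sets that passed. They recur for alternative settings, and support nothing. The 10 genes are anxa1a, anxa1b, anxa1c, anxa3b, anxa4, anxa5b, anxa6, anxa11a, anxa11b and anxa13. They were measured by 15 of 15502 probe sets, 3 for the anxa1 paralogues and 12 for the other 7 genes. Another 4 annexin genes outside this list (anxa1d, anxa2a, anxa2b and anxa13l) had 5 probe sets and are described beside them. No annexin sequence was used here.

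Embryos had received 3 nl of a 0.3 mM antisense morpholino (MO) against prmt6 at the 1-cell or 2-cell stage, or the same dose of a control morpholino (cMO). At 6 hours post fertilization (hpf), when gastrulation starts, MO embryos were sorted by appearance into severe, mild and normal subtypes. There were 3 severe, 1 mild and 1 normal MO array and 3 control arrays, each from whole embryos on the Affymetrix zebrafish genome array. All embryos were injected, no uninjected group was analysed here, and a morpholino acts for a limited time and does not alter the gene itself. The titles call the arrays biological replicates without naming clutches, so spreads and p-values describe these samples only, and the number of arrays limits the precision.

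The array-wide picture was as follows. The deposited log2 signals had medians from 6.48 to 6.81 per array. The prmt6 probe set read 11.10 to 11.41 on severe arrays, 11.13 on the mild array and 11.22 on the normal array, against 9.56 to 9.87 on controls, and RNA level does not show whether a morpholino blocked its target. The gastrula marker tbx16 and the surface epithelium keratin krt4 were far above background on all 8 arrays, but both were lower in severe and mild embryos. On severe arrays krt4 read 8.30 to 10.25 and on the mild array 10.28, against 12.66 to 13.03 on controls. For tbx16 these values were 10.52 to 11.06 and 11.56, against 12.44 to 12.55. Control 3 stood somewhat apart from the other controls (Spearman correlation 0.962 with each, against 0.978 between controls 1 and 2). In whole embryos, fewer cells of a type and less RNA per cell cannot be told apart. A signal under log2 5.10, the 95th percentile of 17 negative control probe sets, is called below background. Signals of different probe sets are not on 1 scale, so levels are compared between arrays and not between genes. Sums of signal over probe sets, given below, are weighted to the bright ones and are a description only.

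The 3 anxa1 paralogues were the annexin members furthest below controls in severe embryos, and they were low on the mild array and near control levels on the normal array. Annexin A1 is known in mammals as a calcium-dependent, glucocorticoid-regulated protein that limits inflammation and phospholipase activity.

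The anxa1a probe set read 8.17, 8.66 and 9.32 on the severe arrays, 9.88 on the mild array and 12.05 on the normal array, against 12.50, 12.57 and 13.05 on the controls. Every severe array and the mild array lay more than 2 log2 units under every control, and the normal array lay just under the lowest control. The difference from the control mean was -3.99 (SE 0.27) for severe, or 15.9-fold lower, -2.82 (SE 0.39) for mild and -0.66 (SE 0.39) for normal. The severe mean was 8.71 ± 0.58 (SD, n = 3) and the control mean 12.70 ± 0.30 (SD, n = 3). In rising order the levels ran severe, mild, normal and control. The mild array exceeded the highest severe array by about the SD of the severe arrays, so severe and mild are not clearly apart, while both are well apart from normal. Of the 3 paralogues, anxa1a was the one that stayed above background on all 8 arrays, so its fold difference is a measured value and not a bound.

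The anxa1b probe set read 3.63, 3.90 and 3.98 on the severe arrays, 4.62 on the mild array and 8.58 on the normal array, against 8.38, 8.39 and 9.55 on the controls. The signal was below background on all severe arrays and the mild array, and the normal array lay within the range of the controls. Set against the background bound, anxa1b was at least 12.7-fold lower in severe embryos and at least 12.7-fold lower in the mild embryos. The difference as measured was -4.94 (SE 0.36) for severe, -4.15 (SE 0.50) for mild and -0.19 (SE 0.50) for normal. That last value turned positive in 2 of 9 alternatives, so the normal embryos cannot be placed above or below controls.

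The anxa1c probe set read 2.98, 4.71 and 3.41 on the severe arrays, 2.82 on the mild array and 7.97 on the normal array, against 7.39, 7.12 and 8.80 on the controls. Severe and mild signals were again all below background, and the normal array again lay within the control range. The gene was at least 6.35-fold lower in severe embryos and at least 6.35-fold lower in the mild embryos. The difference as measured was -4.07 (SE 0.55) for severe, -4.95 (SE 0.78) for mild and 0.20 (SE 0.78) for normal, the last negative in 3 of 9 alternatives. Its mean over all arrays, 5.65, lay just above the limit of 5.585 for entering the test across all probe sets, and the controls and the normal array carried that mean. The same arrays carried the anxa1b mean of 6.38, as its severe and mild signals all lay under that limit.

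**Figure D1:**
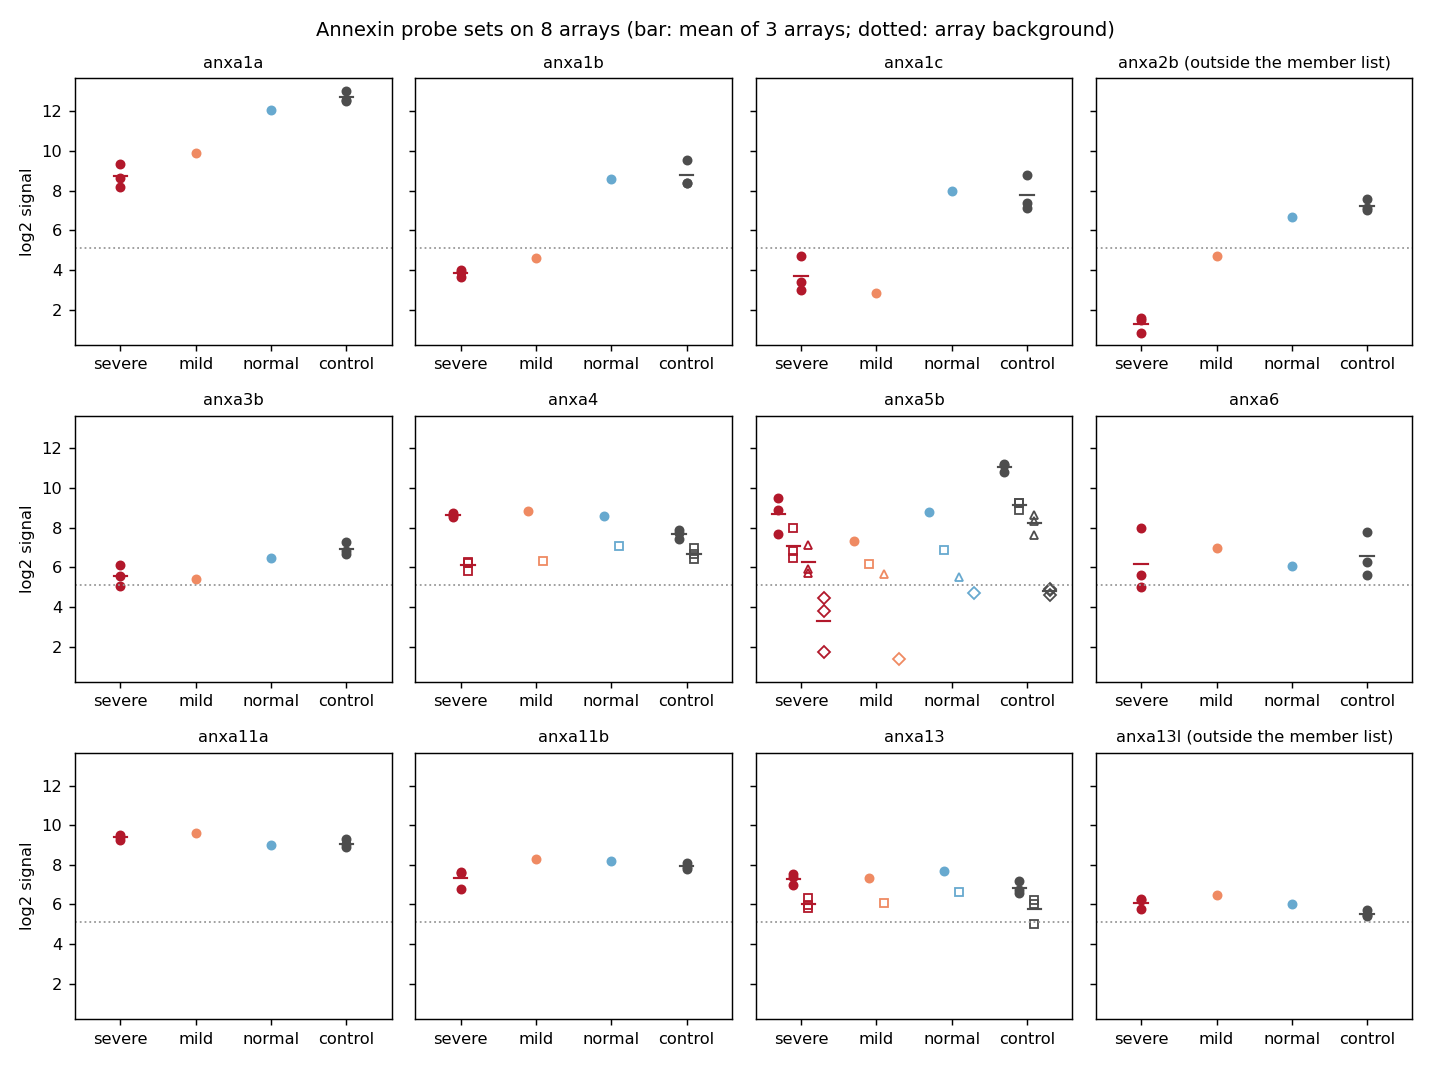
Log2 signal (vertical axis) of 10 annexin members, anxa2b and anxa13l in severe, mild, normal and control embryos. Each point is 1 array, short bars are means of 3 arrays, filled and open symbols are different probe sets of a gene, and the dotted line is the background of log2 5.10. anxa1a, anxa1b, anxa1c and anxa2b are low in severe and mild embryos, while anxa5b is lower than control in all 3 MO subtypes.

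Within the paralogues, control 3 was the highest control for each gene, at 13.05 for anxa1a, 9.55 for anxa1b and 8.80 for anxa1c. Set against control 3 alone, the median difference of the 3 paralogues was -5.40 on severe 3, -4.93 on the mild array and -0.97 on the normal array. With all controls these medians were -4.07, -4.15 and -0.19, beside medians over all 9301 tested probe sets of 0.11, 0.03 and -0.03. By either reference the severe median is the anxa1c value and the mild median the anxa1b value. Both rest on signals below background, so the size of these medians is uncertain. Against the normal array, with no control involved, the severe difference was -3.33 for anxa1a, -4.75 for anxa1b and -4.28 for anxa1c, and every severe array lay under the normal array for all 3 genes. The mild array lay above all severe arrays for anxa1a and anxa1b, and under all of them for anxa1c, where the signals were below background.

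The remaining paralogue, anxa1d, was below background on all 8 arrays by both of its probe sets, and no fold is given. In the GRCz12tu annotation anxa1d, anxa1c and anxa1b lie side by side, and anxa1a lies apart from them. The nearest measured genes on either side of this cluster, taken by position after the values were known, did not share its size of difference. On the anxa1b side, pmpca, which encodes a mitochondrial processing peptidase subunit, differed by -0.66 in severe embryos (limma adjusted p = 0.0688) and by -1.33 on the normal array (limma adjusted p = 0.362). On the anxa1d side ptgs1, a cyclooxygenase gene, differed by 0.48 in severe embryos (limma adjusted p = 0.185). Within 6 genes on each side, the remaining gene measured above background, zgc:101858, differed by -0.10 in severe embryos (limma adjusted p = 0.768).

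**Figure D2:**
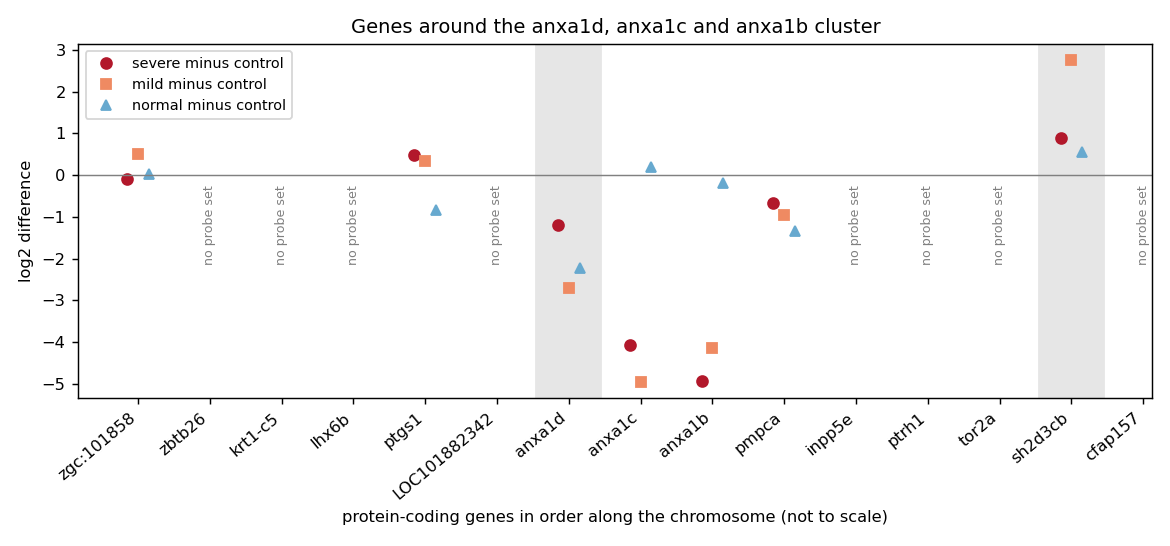
Log2 difference from the control mean (vertical axis) for severe, mild and normal embryos, for genes in their order around anxa1d, anxa1c and anxa1b (horizontal axis, not to scale). Grey columns mark genes below background on all 8 arrays. anxa1c and anxa1b reach -4.07 and -4.94 in severe embryos, and their measured neighbours pmpca and ptgs1 read -0.66 and 0.48.

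Outside the member list, anxa2b had a pattern like that of the anxa1 paralogues. Annexin A2 is known in mammals as the partner of S100A10, with which it joins membranes to actin. The anxa2b probe set read 0.84, 1.56 and 1.45 on the severe arrays, 4.70 on the mild array and 6.65 on the normal array, against 7.0, 7.11 and 7.56 on the controls. Severe and mild signals were below background, and the normal array lay under the lowest control. The gene was at least 4.35-fold lower in severe embryos and at least 4.35-fold lower in the mild embryos. Its mean over all arrays was too low for the main test. With no filter on dim probe sets, limma gave an adjusted p of 5.17e-05 for severe, 0.0461 for mild and 0.828 for normal. The severe and mild p-values were computed on signals below background, so the differences behind them are uncertain. The other annexin A2 gene, anxa2a, was below background on all 8 arrays.

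The anxa5b gene had another order, with lower signals in all 3 MO subtypes, the normal-looking embryos included. Annexin A5 binds phosphatidylserine and is widely used as a probe for dying cells. Its brightest probe set read 9.50, 8.89 and 7.67 on the severe arrays, 7.33 on the mild array and 8.78 on the normal array, against 11.20, 11.14 and 10.80 on the controls. All 5 MO arrays lay more than 1 log2 unit under every control. The difference was -2.36 (SE 0.39) for severe, or 5.15-fold lower, -3.72 (SE 0.55) for mild, or 13.1-fold lower, and -2.27 (SE 0.55) for normal, or 4.82-fold lower.

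A second anxa5b probe set read 8.0, 6.82 and 6.49 on the severe arrays, 6.19 on the mild array and 6.87 on the normal array, against 9.27, 9.23 and 8.89 on the controls. The third read 7.13, 5.71 and 5.90 on the severe arrays, 5.65 on the mild array and 5.49 on the normal array, against 8.35, 8.66 and 7.63 on the controls. In both, no MO array overlapped the controls. Differences were -2.03, -2.94 and -2.27 for severe, mild and normal by the second and -1.96, -2.56 and -2.72 by the third. These 3 probe sets come from 1 sequence cluster, and the brightest and the third carry the suffix for probes that match more than 1 transcript, so they are not independent. A further anxa5b probe set was below background on all 8 arrays, was the 1 member probe set left out of the test across all probe sets, and gets no fold.

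The order of levels for the brightest anxa5b probe set was mild, severe, normal and control. The severe mean and the normal array differed by -0.09, far less than the severe SD of 0.93, while the control mean stood more than 2 log2 units higher. By the second probe set the severe mean was 0.24 above the normal array. By the third it was 0.76 above, and there the normal array was the lowest of all. The order of the MO subtypes for anxa5b therefore rests on the probe set. On the normal array these 3 probe sets ranked 10, 11 and 7 from the lowest difference among 9301 tested probe sets, in the order given above. The same probe sets ranked 267, 370 and 398 in severe embryos. For comparison, anxa1a, anxa1b and anxa1c ranked 851, 3249 and 6741 on the normal array, and anxa1a ranked 55 in severe embryos, where the other paralogues were below background. Over 9 alternatives the normal difference of the 3 anxa5b probe sets stayed between -3.06 and -2.00. All 9 reuse the same normal array, so they do not show whether it would repeat. The ranks are a description only, since the 3 probe sets are not independent and none passed on the normal array.

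The anxa3b gene was moderately lower in severe and mild embryos. It read 5.57, 6.14 and 5.05 on the severe arrays, 5.42 on the mild array and 6.49 on the normal array, against 6.83, 6.67 and 7.26 on the controls. No MO array overlapped the controls, and severe 3 was below background. The difference was -1.33 (SE 0.34) for severe, or 2.52-fold lower, -1.50 (SE 0.48) for mild and -0.43 (SE 0.48) for normal.

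The 2 anxa4 probe sets disagreed. Annexin A4 is known in mammals as an epithelial member. The brighter one read 8.72, 8.56 and 8.65 on the severe arrays, 8.84 on the mild array and 8.57 on the normal array, against 7.86, 7.75 and 7.42 on the controls. All 5 MO arrays were above all controls. Differences from the control mean were 0.96 (SE 0.20) for severe, 1.16 (SE 0.28) for mild and 0.89 (SE 0.28) for normal. The dimmer one read 6.26, 6.20 and 5.82 on the severe arrays, 6.32 on the mild array and 7.07 on the normal array, against 6.42, 6.66 and 6.96 on the controls. There the severe and mild arrays lay under the controls and the normal array above them, with differences of -0.58, -0.36 and 0.39 on the log2 scale. The direction for anxa4 therefore rests on the probe set.

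Among the other members, anxa6 varied more within groups than between them. Annexin A6 is the largest family member, with a duplicated core. It read 4.99, 5.60 and 7.97 on the severe arrays, 6.99 on the mild array and 6.05 on the normal array, against 5.61, 6.29 and 7.78 on the controls. Severe 3 and control 3 were the highest arrays, and the mild and normal arrays lay between the extremes of both groups. The severe difference of -0.37 (SE 0.78) was smaller than its error.

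Annexin A11 binds the calcium sensor ALG-2 (gene pdcd6) in mammals and serves in vesicle traffic and cell division. The anxa11a probe set read 9.53, 9.40 and 9.27 on the severe arrays, 9.63 on the mild array and 8.99 on the normal array, against 9.03, 9.30 and 8.89 on the controls. Severe and normal arrays overlapped the controls, with a severe difference of 0.33 (SE 0.17). The mild array lay above all controls, with a difference of 0.56 (SE 0.24) that was 0.11 under scaling on hybridisation controls. The anxa11b probe set read 6.76, 7.57 and 7.65 on the severe arrays, 8.31 on the mild array and 8.22 on the normal array, against 7.77, 7.91 and 8.10 on the controls. Its severe arrays lay under and its mild and normal arrays above all controls, with differences of -0.60 (SE 0.28), 0.38 (SE 0.39) and 0.29 (SE 0.39). Severe 1 was the lowest array. Under scaling on hybridisation controls the mild and normal differences of anxa11b turned to -0.06 and -0.05. The partner gene pdcd6 differed by 0.25 in severe embryos (limma adjusted p = 0.332).

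Annexin A13 is known in mammals as an intestinal epithelial member. The brighter anxa13 probe set read 7.52, 6.97 and 7.38 on the severe arrays, 7.34 on the mild array and 7.68 on the normal array, against 6.75, 6.56 and 7.20 on the controls. Severe arrays overlapped the controls and the normal array was the highest of all. Differences were 0.45 (SE 0.27), 0.50 (SE 0.38) and 0.84 (SE 0.38) for severe, mild and normal, and 0.29, 0.31 and 0.89 by the dimmer probe set. Outside the list, the related anxa13l differed by 0.56 in severe embryos (limma adjusted p = 0.143), 0.93 on the mild array (limma adjusted p = 0.15) and 0.47 on the normal array (limma adjusted p = 0.719).

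**Figure D3:**
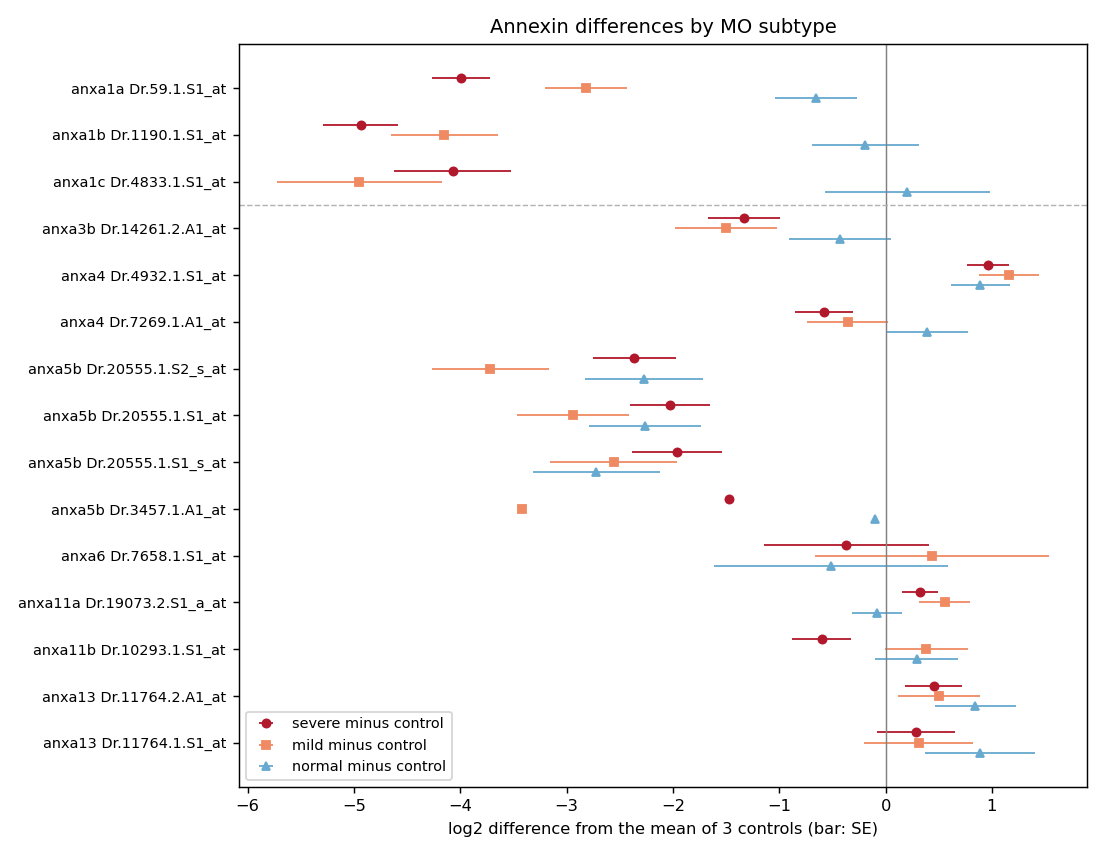
Log2 difference from the mean of 3 controls (horizontal axis) for 15 annexin probe sets (rows) in severe, mild and normal embryos. Bars are standard errors, absent for the 1 probe set left out of the fit, and the dashed line parts the anxa1 paralogues from the other annexins. The paralogues lie between -4.95 and -2.82 in severe and mild embryos and between -0.66 and 0.20 in normal ones, while 3 anxa5b probe sets lie near or below -1.96 in every subtype.

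Set side by side, the severe difference as measured ran from -4.94 to -3.99 over the 3 paralogue probe sets, where those of anxa1b and anxa1c are known only as bounds, and from -2.36 to 0.96 over the 12 others, whose median was -0.59. On the mild array the paralogues as measured ran from -4.95 to -2.82 and the others from -3.72 to 1.16. These ranges overlapped, with anxa5b among the lowest. On the normal array the paralogues ran from -0.66 to 0.20 and the others from -2.72 to 0.89, where anxa5b was lowest. The mild median of the others was -0.02 and the normal median -0.09. Weighting genes equally, with 1 probe set per gene, the mild median of the others was 0.44, since anxa5b alone holds 4 of the 12 probe sets.

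In the limma fit across all probe sets, 8 of 14 tested member probe sets passed an adjusted p of 0.05 in severe embryos, 7 lower and 1 higher, where 38.6% of all tested probe sets passed. In mild embryos 7 passed, 6 lower and 1 higher, where 13.5% of all passed. On the normal array 0 of 14 passed, where 0.043% of all passed, and 4 had an unadjusted p under 0.05, as did 9.3% of all. Of these 4, 3 are the anxa5b probe sets of 1 sequence cluster. In severe embryos 10 of the 14 had arrays that did not overlap the controls, as did 52.8% of all tested probe sets. The family was proposed from these contrasts, so nothing is read from these counts. The higher call was the brighter anxa4 probe set in both subtypes, and scaling on hybridisation controls ended it in both. With replicates 1 and 2 of control and severe only, 4 member probe sets passed on the normal array, the 3 anxa5b probe sets and the brighter anxa4 one, beside 1094 of all 9301.

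The S100 genes were the first group of partners examined. Here and below, counts of genes that fell or rose are of those that passed a limma adjusted p of 0.05. Of 15 listed S100 genes, 5 were tested in severe embryos and 2 fell (median -0.13). Over all tested probe sets 17.6% passed as lower, and 5 genes are too few to set against that share. The gene s100a10b, whose product is known in mammals as the partner of annexin A2, averaged 4.45 ± 1.44 in severe embryos and 6.88 ± 0.44 in control embryos (SD, n = 3 each). Its difference was -2.43 (SE 0.63, limma adjusted p = 0.0147), with 2 of 3 severe arrays and the severe mean below background, so its size is uncertain. The call was lost without control 3 (limma adjusted p = 0.0606). It differed by -0.94 on the mild array (limma adjusted p = 0.527) and -0.42 on the normal array (limma adjusted p = 0.904). The gene s100v2 fell by 0.85 on the log2 scale in severe embryos (SE 0.18, limma adjusted p = 0.00692) and by 0.96 in mild embryos (limma adjusted p = 0.0426), and read 0.11 on the normal array without passing (limma adjusted p = 0.911). Neither s100a1 nor s100u nor s100v1 passed.

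Prostaglandin and phospholipase A2 genes were examined because annexin A1 is known to restrain this pathway in mammals. Of 25 listed genes 7 were tested, and 2 fell and 1 rose in severe embryos (median 0.27). Over all tested probe sets 38.6% passed in either direction, a share near that of these few genes. The inducible cyclooxygenase gene ptgs2a averaged 4.11 ± 1.00 in severe embryos and 8.18 ± 0.12 in control embryos (SD, n = 3 each), a difference of -4.08 (SE 0.46, limma adjusted p = 0.000265). With 1 of 3 severe arrays above background and the severe mean below it, the size of this difference is uncertain. It fell by 2.92 on the mild array (limma adjusted p = 0.0202) and read -0.01 on the normal array. The prostaglandin E synthase gene ptges3b fell by 0.86 (limma adjusted p = 0.0174), a call lost without control 3 (limma adjusted p = 0.0558). The secreted phospholipase gene pla2g12a rose by 0.76 (limma adjusted p = 0.0451), a call lost in 7 of the alternatives that tested it.

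Membrane repair and ESCRT genes, whose products reseal and cut membranes beside annexins, were called at about the rate of all probe sets. Of 40 listed genes 19 were tested, and 4 fell and 4 rose in severe embryos (median 0.13). Of all tested probe sets 17.6% passed as lower there and 21% as higher. The ESCRT-III genes chmp4c and chmp4ba rose by 1.29 (SE 0.17, limma adjusted p = 0.000533) and 1.07 (SE 0.20, limma adjusted p = 0.00358), and the chmp4ba call was lost under scaling on hybridisation controls (limma adjusted p = 0.108). The ESCRT-I gene vps28 fell by 1.11 (limma adjusted p = 0.00172) and the ESCRT-III gene chmp1b by 1.00 (limma adjusted p = 0.00515). On the mild array chmp4c rose and vps28 fell as well (limma adjusted p = 0.0337 and 0.024).

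Other calcium-dependent phospholipid binders use a C2 domain in place of annexin repeats. Of 34 listed genes of this kind, 12 were on the array and 5 were bright enough to be tested. In severe embryos 2 rose and 0 fell (median 0.81), too few to set against the 38.6% of all probe sets that passed. They were rasa1a, a Ras GTPase-activating protein gene, by 0.82 (limma adjusted p = 0.00429), and the protein kinase C gene prkcbb by 0.84 (limma adjusted p = 0.0357). Both calls were lost under scaling on hybridisation controls (limma adjusted p = 0.154 and 0.337), and the prkcbb call was also lost when severe 1, severe 2, control 2 or control 3 was left out (limma adjusted p from 0.0664 to 0.124).

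Markers of the enveloping layer, the thin epithelium that covers the embryo, were mostly below controls in severe and mild embryos, as were the anxa1 paralogues. Yolk syncytial layer and deep cell markers, given below, were mostly lower as well. Of 37 listed markers, annexins left out, 25 were tested, and 18 fell and 1 rose in severe embryos (median -2.33), while 10 fell on the mild array (median -1.20) and none passed on the normal array (median -0.11). Over all tested probe sets 17.6% passed as lower in severe embryos and 8.78% on the mild array. The 5 of smallest p in severe embryos included the calpain gene capn9 (-4.41, limma adjusted p = 8.79e-05). The plakophilin gene pkp3a (-4.52, limma adjusted p = 9.18e-05) was above background on 1 of 3 severe arrays. The others were the periplakin gene ppl (-3.12, limma adjusted p = 0.000153), the desmocollin gene dsc2l (-2.87, limma adjusted p = 0.000201) and lye (-2.33, limma adjusted p = 0.00024). The marker that rose in severe embryos was agr2 (1.45, limma adjusted p = 0.00715), with 1 of 3 controls below background. Among those that did not pass in severe embryos were klf2b (-0.01), cdh1 (-0.08) and epcam (0.19). The summed linear signal of the 29 markers on the array was 30787 to 38774 in severe, 42489 in mild and 78926 in normal embryos, against 79259 to 99935 in controls. Between 5 and 9 of the 29 were below background on severe arrays, against 3 or 4 on controls. The summed anxa1 signal was 308 to 664 in severe, 975 in mild and 4864 in normal embryos, against 6279 to 9655 in controls. The anxa1a probe set, by far the brightest of the 3, makes up most of that sum. The summed signal of the other annexins was 2172 to 2792, 2333 and 2408 in severe, mild and normal embryos, against 4112 to 4825 in controls. That gap lay in the 4 anxa5b probe sets, which count 1 gene more than once. They summed to 366 to 1122 in severe, 287 in mild and 626 in normal embryos, against 2482 to 3331 in controls. The other 8 probe sets summed to 1617 to 1806 in severe, 2047 in mild and 1782 in normal embryos, against 1362 to 1630 in controls. The part of these cells in the annexin differences was not tested.

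Markers of other cell types changed as well. In severe embryos 8 of 11 tested yolk syncytial layer markers fell and 1 rose (median -2.06). For deep cells 11 of 13 markers fell and 1 rose (median -1.75), and for germ cells 1 of 6 fell and 3 rose (median 0.72). Over all tested probe sets 17.6% passed as lower and 21% as higher. The summed signal of 17 yolk syncytial layer markers was 5622 to 10942 in severe embryos, 12483 in mild and 23439 in normal embryos, against 19763 to 32489 in controls. Between 7 and 11 of them were below background on severe arrays, against 3 to 5 on controls. For 14 deep cell markers of mesendoderm and ectoderm the sums were 16193 to 21555, 27127 and 37929 in severe, mild and normal embryos, against 34858 to 40591 in controls, with 1 to 3 below background on severe arrays and 1 on each control. For 6 germ cell markers they were 7227 to 8686, 6507 and 5992, against 5117 to 5367 in controls, with none below background.

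**Figure D4:**
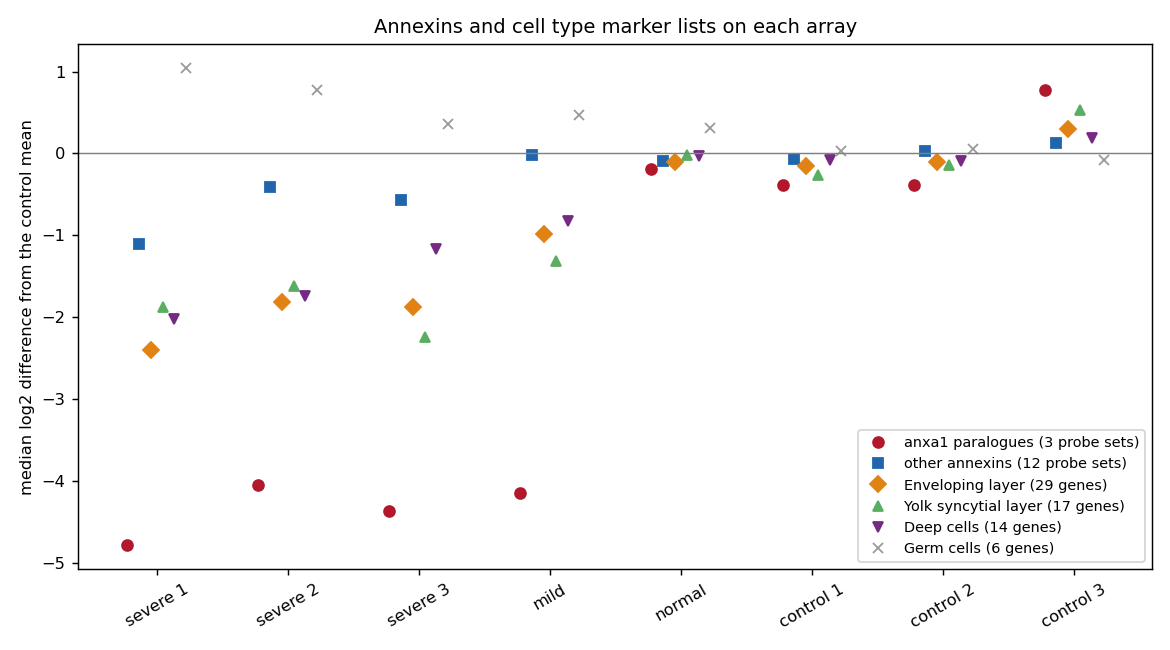
Median log2 difference from the control mean (vertical axis) on each of 8 arrays (horizontal axis) for the 3 anxa1 probe sets, the 12 other annexin probe sets and 4 lists of cell type markers. Each symbol is 1 list on 1 array. On severe and mild arrays the anxa1 symbols lie lowest of the 6 lists, and on the normal array every list but germ cells lies near 0. The depth of the anxa1 symbols on severe and mild arrays is uncertain, since anxa1b and anxa1c are below background there.

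Genes most like each member over the 8 arrays were taken by Pearson's r among 5789 genes. The arrays share steps between groups, mainly that of severe and mild embryos against normal and control embryos. Many genes follow such a step, and the values are a description. For anxa1a they were eef2a.1, ldb1a, arl6ip5a, ctsll and cd81a (r = 0.996 to 0.997). For anxa1b they were yy1a, fscn1a, ubqln4, ndufs6 and gcnt4a (r = 0.997 to 0.998). For anxa1c they were etnk1, etfdh, evpla, surf1 and s100v2 (r = 0.984 to 0.995), of which evpla is an enveloping layer marker. The closest to anxa5b were tmem184ba, mcl1b and tomm40l (r = 0.974 to 0.982), and each of these was lower than control in all 3 MO subtypes. Their normal differences were -0.88, -0.28 and -0.89, smaller than the -2.27 of anxa5b.

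For anxa3b they were szl, rtca and dhrs13a.2 (r = 0.982 to 0.986), and for the brighter anxa4 probe set fam174c, rpn2 and tjp2b (r = 0.976 to 0.991). For anxa11a they were twf1a, eps8a and bcor (r = 0.959 to 0.978), and for anxa11b ubb, nop14 and mcm7 (r = 0.974 to 0.981). The likeness was lower for anxa13, with zp3.1, mrps12 and mrps15 (r = 0.926 to 0.948), and for anxa6, with smim15, ndufs5 and nsfl1c (r = 0.915 to 0.925).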

How the data were processed

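Affymetrix zebrafish genome arrays measured RNA of whole embryos. The authors deposited log2 signals, and the submitters' processing notes name MAS5 without a version. Per the deposited values, every array has a linear mean of 500.1 after 2% is trimmed from each end. Titles place 3 arrays in severe, 1 in mild, 1 in normal and 3 in control.

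Platform symbols, brought up to date by Entrez number where possible (10718 cases), gave 1 gene to 10795 probe sets, several to 135 and none to 4572, with 115 control probe sets set aside. The test across probe sets kept the 9301 whose mean reached log2 5.585, the 40th percentile. limma 3.58.1 (R 4.3.3) fitted 4 group means by lmFit and a trended eBayes, leaving 4 residual degrees of freedom, and p-values were adjusted by Benjamini-Hochberg (threshold 0.05). Single mild and normal arrays are thereby assumed to vary like the replicated groups. The steps were tested on simulated data. "At least" folds set the bright mean against the background of log2 5.10.

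Members and lists were chosen with earlier results of these data known. Named genes were all annexins, the genes of highest Pearson r (5 per anxa1 paralogue, 3 per other member) and up to 4 genes of smallest p per list (5 for the enveloping layer). Flanking genes, pdcd6 and sample check genes are named beside these. Alternatives covered scaling, filter, variance model, arrays used and a replicate block. Figures used matplotlib 3.10.9.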

Additional observations from a re-analysis of the deposited data

Results flagged for a closer look

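Severe arrays all lay on one side of the control mean and the normal or mild array on the other for 4 members, and none of these differences between subtypes was tested. For anxa1c the severe difference was -4.07 and the normal one 0.20. The dimmer anxa4 probe set read -0.58 in severe embryos and 0.39 on the normal array. The anxa11a gene read 0.33 in severe embryos and -0.08 (SE 0.24) on the normal array. Both overlapped the controls, and the normal value turned positive in 3 of 9 alternatives. The anxa11b gene read -0.60 in severe embryos, 0.38 on the mild array and 0.29 on the normal array.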

How the results depend on the processing

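The anxa1 median stayed below 0 in severe and mild embryos under every alternative run, and on the normal array it changed sign in 2 of 9. Adding 32 to the linear signal gave anxa1 medians of -3.35 in severe and -2.78 in mild embryos, and control 3 alone as the reference gave -5.40 on severe 3, -4.93 on the mild and -0.97 on the normal array. Scaling on 18 hybridisation control probe sets moved the median of all tested probe sets from 0.11, 0.03 and -0.03 to -0.17, -0.42 and -0.37 in severe, mild and normal embryos. It gave medians of the other annexins of -0.87, -0.47 and -0.43, and 2377, 997 and 0 calls over all probe sets (severe 474 higher and 1903 lower, mild 30 and 967). Median centring gave 718 higher and 575 lower in mild embryos, against 436 and 817. The mild median of the other annexins was -0.71 with control 3 alone and 0.44 with 1 probe set per gene. With replicates 1 and 2 only, 3037 probe sets passed in mild and 1094 in normal embryos, 4 of the normal ones annexin member probe sets.

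On the normal array 4 probe sets passed as deposited, 1 after quantile normalization, 2 with no filter and 1 with no variance trend. With the filter at the 60th percentile, 4 annexin member probe sets passed in severe and 4 in mild embryos, as fewer were tested, with 12 enveloping layer, 1 S100 and 1 phospholipase and eicosanoid gene in severe embryos. The share of all probe sets that passed with the filter at the 60th percentile is not given here, so nothing is read from those counts. With no variance trend 5 of 19 tested repair genes passed in severe embryos. Under hybridisation scaling 0 of 5 tested C2 domain genes passed there, where 2377 of all 9301 tested probe sets passed. The share of all probe sets that passed with no variance trend is not given here, and nothing is read from these counts.

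Leaving out 1 replicate at a time, calls ranged from 2739 to 4187 in severe, 615 to 1893 in mild and 0 to 14 in normal embryos, the extremes for mild being without control 2 and without severe 3. For annexin member probe sets they ranged from 7 to 8, 5 to 8 and 0 to 1. Severe calls ranged from 1 to 2 S100, 5 to 9 repair, 1 to 2 C2 domain and 1 to 4 phospholipase and eicosanoid genes. The anxa1 median ranged from -4.58 to -3.72, -4.35 to -3.76 and -0.39 to 0.20 in severe, mild and normal embryos. Its severe and mild ranges include signals below background, so their sizes are uncertain. The median of the others ranged from -0.91 to -0.48, -0.28 to 0.12 and -0.09 to 0.02.

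The replicate numbers gave no clear pairing of the arrays, and so few arrays per group cannot settle it. Deviations of same-numbered severe and control arrays correlated at 0.337, -0.072 and 0.338. Differently numbered arrays ran from -0.452 (severe 1 with control 3) to 0.385 (severe 1 with control 2). Severe 3 correlated at -0.282 with control 1 and -0.257 with control 2. With the replicate block, 4413 probe sets passed in severe embryos, and 8 of these were annexin member probe sets. Of the nearest genes, 3 of 5 were shared for anxa1a under median centring and 3 under hybridisation scaling. After quantile normalization, median centring and hybridisation scaling, 3, 2 and 2 of 5 were shared for anxa1b and 3, 3 and 2 of 5 for anxa1c. For anxa5b 1 of 3 was shared after quantile normalization and 0 under hybridisation scaling. The cause of these shifts was not tested. Signals below log2 5.10 limit what anxa1b, anxa1c and anxa2b can show in severe and mild embryos.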

Other observations

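Genes near anxa1a and anxa5b, taken by position in the annotation after the values were known, gave few measured neighbours. Within 6 protein-coding genes of anxa1a, zfand5a, a zinc finger gene, fell by 0.55 on the log2 scale in severe embryos (limma adjusted p = 0.0099) and by 0.82 on the mild array (limma adjusted p = 0.021), and wu:fa19b12 rose by 0.75 in severe embryos (limma adjusted p = 0.0291). Beside anxa5b, the deubiquitinase gene uchl1 read 0.58 in severe embryos (limma adjusted p = 0.0693) and 0.02 on the normal array, where anxa5b read -2.27. At 5 genes from anxa5b, tapt1b rose by 1.60 in severe embryos (limma adjusted p = 0.00157).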
